A study of Mus musculus with 9 samples.

Results

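The cells described here were the T and cytotoxic lymphocytes of the mouse epididymis, also called halo cells because of the clear rim around the nucleus in tissue sections. A barcode of the single-cell table was taken as a lymphocyte barcode when it held 300 to 4000 detected genes, at most 20000 UMIs (unique molecular identifiers, counted as RNA molecules) and under 50% mitochondrial UMIs, when at least 3 of the 7 genes Ms4a4b, Nkg7, Trbc2, Cd3g, Cd3d, Cd3e and Ccl5 were detected, and when fewer than 2 of the macrophage genes C1qa, C1qb and C1qc were detected. The members were thus chosen by detection of these genes. This rule found 356 lymphocyte barcodes among 42087 barcodes that passed the same filter, and the other 41731 are called the rest.

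The libraries came from untreated wild-type C57BL/6 mice (C57BL/6J in the study's methods) of 42 days (P42) or 56 days (P56). Each epididymis was cut into caput, corpus and cauda, from the testis end to the storage end of the duct, and each segment was pooled from 5 mice before dissociation. The 9 libraries formed 1 pool of mice at P42 and 2 pools at P56, with 15 mice in all, so each library is a pool of animals and age at P42 cannot be told apart from its pool. The question put to the lymphocyte barcodes was that of the study for its cell populations: which genes and which cell shares differed between segments and between ages.

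T cells read antigen through a T cell receptor, made of alpha and beta or of gamma and delta chains and carried to the surface with the CD3 proteins, while natural killer (NK) cells lack this receptor and use Klr and Ncr family receptors. Both kill through granules of perforin and granzymes. In the epididymis, lymphocytes lie singly between epithelial cells, next to sperm that carry antigens formed after immune tolerance is set, and gamma-delta T cells that make interleukin-17 are known at several such barrier epithelia.

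Promoter sequence is shown for 4 genes that led the lymphocyte barcodes, 2 genes of the CD3 complex that lie side by side on chromosome 9 and 2 genes of cytotoxic granules, because each stood far above the rest. Cd3g, Cd3d and Nkg7 are genes of the rule, so their levels against the rest follow from the choice of barcodes. Each line gives the 250 bases upstream of the start site in RefSeq on GRCm38.p6, and capitals mark matches, on either strand, to the core letters TGTGGT (RUNX), AGGAAG (ETS) or TCACACC (T-box). The windows were chr9:44980432-44980681 on the minus strand for Cd3g, chr9:44981536-44981785 on the plus strand for Cd3d, chr7:43436888-43437137 on the plus strand for Nkg7 and chr14:56262335-56262584 on the minus strand for Gzmb.
Cd3g: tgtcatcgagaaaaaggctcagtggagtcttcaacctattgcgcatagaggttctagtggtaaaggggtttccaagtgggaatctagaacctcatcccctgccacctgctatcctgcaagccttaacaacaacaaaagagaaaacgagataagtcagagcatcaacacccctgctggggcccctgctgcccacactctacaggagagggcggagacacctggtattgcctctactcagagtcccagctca
Cd3d: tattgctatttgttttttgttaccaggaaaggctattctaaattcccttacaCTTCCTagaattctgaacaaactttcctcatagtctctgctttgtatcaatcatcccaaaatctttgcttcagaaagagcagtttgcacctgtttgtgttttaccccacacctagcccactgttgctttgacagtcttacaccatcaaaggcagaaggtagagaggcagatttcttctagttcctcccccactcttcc
Nkg7: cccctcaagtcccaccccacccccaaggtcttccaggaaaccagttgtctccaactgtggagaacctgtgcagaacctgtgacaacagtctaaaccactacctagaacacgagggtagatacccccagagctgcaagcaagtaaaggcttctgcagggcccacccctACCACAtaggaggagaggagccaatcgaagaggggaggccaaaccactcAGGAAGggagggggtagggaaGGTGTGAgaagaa
Gzmb: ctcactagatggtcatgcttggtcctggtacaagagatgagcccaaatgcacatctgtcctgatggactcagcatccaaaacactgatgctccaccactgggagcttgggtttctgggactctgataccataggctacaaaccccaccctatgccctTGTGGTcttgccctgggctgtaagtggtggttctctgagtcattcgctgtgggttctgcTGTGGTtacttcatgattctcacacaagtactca
Nkg7 had 1 match to each of the 3 motifs, Gzmb had 2 RUNX matches, Cd3d had 1 ETS match and Cd3g had 0 matches. Of 32851 promoter windows of this length, 14.0% held the RUNX letters, 29.5% the ETS letters and 3.33% the T-box letters, so single matches to the ETS letters are common in any promoter. The matches describe letters only.

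The rule was checked with 12 genes of T and cytotoxic cells that it did not use (Cd2, Lck, Thy1, Cd247, Trac, Ctsw, Gzmb, Klrd1, Il2rb, Cxcr6, Xcl1 and Ets1). At least 1 of the 12 was detected in 316 of the 356 lymphocyte barcodes (88.8%) and at least 2 in 253 (71.1%), against 8.62% and 1.13% of the rest. Their summed level was 1028 CPM (UMIs of the gene scaled to a common library total, the usual counts-per-1e6 unit) in the lymphocyte barcodes and 21.7 CPM in the rest. A CD3 gene was detected in 252 (70.8%), a constant region of a T cell receptor chain in 270 (75.8%) and neither in 41. The CD3 genes and Trbc2 are genes of the rule, so these shares follow in part from the choice of barcodes and are no check of it. The check was weaker at P56: at least 1 of the 12 genes was found in 188 of 198 barcodes (94.9%) at P42 and in 128 of 158 (81.0%) at P56, with summed levels of 1750 and 478 CPM. Over the libraries the share ran from 72.7% (cauda P56 replicate 1) to 98.5% (cauda P42).

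The threshold of 3 genes cut through a gradient. Of the 356, 178 held exactly 3 of the rule genes, 100 held 4, 44 held 5, 21 held 6 and 13 held all 7. Among the 178 just inside the threshold 82.6% had at least 1 of the 12 other genes (734 CPM), among the 329 barcodes just outside it with exactly 2 rule genes 45.9% had 1 (231 CPM), and with 0 rule genes 6.77% did (14.2 CPM). Barcodes with exactly 3 rule genes made up 43.4% of the lymphocyte barcodes at P42 and 58.2% at P56. As the rule chose barcodes by these genes, their levels against the rest are given without a test.

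Most RNA of the lymphocyte barcodes was not particular to lymphocytes. Of 2484 genes with at least 100 UMIs in them, 2374 stood between 0.5 and 2 times the level of the rest, 102 stood at 2 or more times and 43 at 10 or more times, and the genes at 2 or more times held 2.73% of their UMIs. The summed level of 14 principal cell genes (secretory epithelium) ran from 3551 to 143254 CPM over the libraries in the lymphocyte barcodes and from 5078 to 155706 CPM in the rest, and the 7 fibroblast and myoid genes from 234 to 27223 CPM and from 458 to 41315 CPM. Median ratios to the rest were 0.88 for the principal cell genes, 0.86 for basal cell genes, 0.68 for fibroblast and myoid genes and 0.27 for 9 macrophage genes. The rule left barcodes with 2 or more C1q genes out of the lymphocyte barcodes but kept them in the rest. The macrophage ratio was thus lowered by the choice of barcodes. Of the B cell genes, Cd79a and Ms4a1 were at 0 UMIs, Cd79b and Igkc held 3 and 5 UMIs, and Ighm was found in 55 lymphocyte barcodes (15.4%, 4.62% of the rest), in 22.7% at P42 and 6.33% at P56, at 1.27 times the level of the rest. Whether this RNA came from barcodes that held more than 1 cell or from free RNA was not tested, and no doublet caller was run.

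Over all libraries the lymphocyte barcodes had a median of 4272 UMIs and 1602 genes, and the rest 5563 UMIs and 1739 genes. The order differed within libraries. In caput, corpus and cauda, their medians were 7078.5, 3145 and 3292 UMIs at P42, against 5896, 3450 and 3082 in the rest. In P56 replicate 1 they were 8151, 2925.5 and 5876, against 5834.5, 4465 and 6431. In P56 replicate 2 they were 6708, 5054.5 and 8342, against 6434, 4926 and 7644. Summed UMIs of all kept barcodes ran from 19248247 to 40879086 per library, and those of the lymphocyte barcodes from 74030 to 420093 per library. The P42 corpus and cauda libraries were the shallowest, with medians of 3450 and 3082 UMIs in the rest. Above the 95th percentile of UMIs of their library lay 12 lymphocyte barcodes (3.37%), and 12 held over 5% globin UMIs. Of the barcodes, 381 had a sequence found in more than 1 library, 1 of them a lymphocyte barcode, and no sequence was shared between lymphocyte barcodes.

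Lymphocyte barcodes were most frequent in the corpus and cauda at P42. They numbered 22 of 4209 barcodes in the caput (0.523%, exact 95% binomial interval 0.328 to 0.790), 109 of 4562 in the corpus (2.39%, 1.97 to 2.88) and 67 of 4590 in the cauda (1.46%, 1.13 to 1.85) at P42. In P56 replicate 1 they numbered 28 of 4868 (0.575%, 0.383 to 0.830), 34 of 4726 (0.719%, 0.499 to 1.0) and 11 of 4858 (0.226%, 0.113 to 0.405) in the same order. In P56 replicate 2 they numbered 51 of 4910 (1.04%, 0.774 to 1.36), 14 of 4490 (0.312%, 0.171 to 0.523) and 20 of 4874 (0.410%, 0.251 to 0.633). The corpus and cauda of the P42 pool lay above every P56 library of their segment, while the caput at P42 lay below both caput libraries at P56. The intervals cover counting error only.

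**Figure D1:**
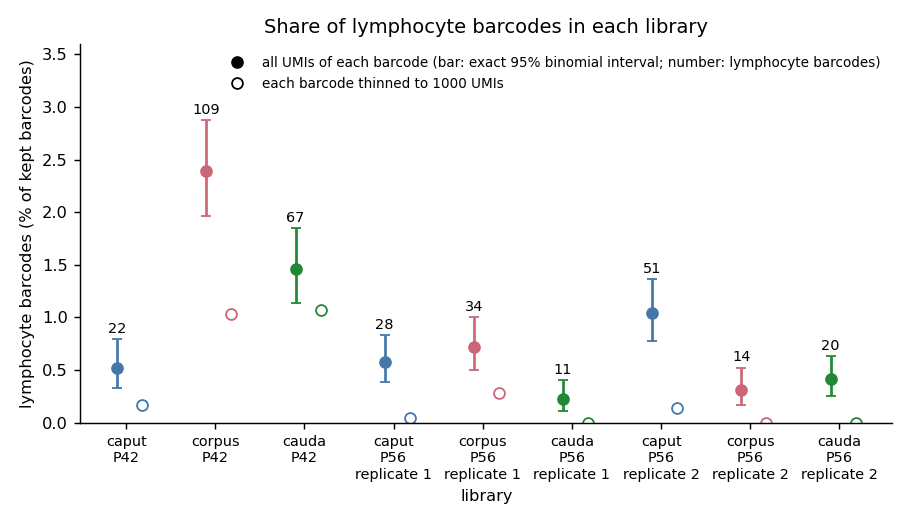
Share of lymphocyte barcodes (percent of kept barcodes, y axis) in each of the 9 libraries (x axis), with filled points for all UMIs, bars for exact 95% binomial intervals, numbers for lymphocyte barcodes, and open points for barcodes thinned to 1000 UMIs. The P42 corpus (2.39%) and cauda (1.46%) stand above the other 7 libraries with all UMIs, and above them with thinned barcodes (1.03% and 1.07%).

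Over all segments the share was 1.48% at P42 (198 of 13361) and 0.550% at P56 (158 of 28726). In corpus and cauda together it was 1.92% at P42 and 0.417% at P56, and in the caput 0.523% and 0.808%. Because detection of 3 genes depends on depth, each barcode was also thinned to 1000 UMIs, which left out 475 shallower barcodes and kept 121 lymphocyte barcodes. The thinned shares were 0.167%, 1.03% and 1.07% in caput, corpus and cauda at P42, 0.0412%, 0.278% and 0% in P56 replicate 1 and 0.143%, 0% and 0% in P56 replicate 2, where the 3 zeros allow shares of up to 0.0618%, 0.0668% and 0.0616%. The excess in the P42 corpus and cauda was thus present at an equal number of UMIs per barcode. The order of the caput libraries turned on few barcodes, with P42 (7 of 4200) above both P56 libraries (2 of 4859 and 7 of 4909). Thinning did not equalise the level of the rule genes in the lymphocyte barcodes. Their summed level ran from 2872 to 5844 CPM at P42 and from 1011 to 3801 CPM at P56, and its part in the thinned shares was not tested. The age difference rests on 1 pool at P42 and has no test.

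No difference in share between segments passed the test within pools. The mean over pools was 0.712% ± 0.284 for caput, 1.14% ± 1.10 for corpus and 0.699% ± 0.665 for cauda libraries (SD, n = 3 pools), and an exact two-sided permutation of segment labels within pools gave p = 0.806, where the smallest p possible was 0.0278. Corpus minus caput was 0.428 ± 1.32 percentage points (SD, n = 3, exact permutation by sign flips p = 0.75), cauda minus caput -0.0134 ± 0.835 (exact p = 1) and corpus minus cauda 0.441 ± 0.516 (exact p = 0.5), and 3 pools cannot go below p = 0.25 in such a pair. The corpus held more than the cauda in 2 of 3 pools under the rule. The limit on C1q genes left out 60 barcodes with at least 3 rule genes in the P42 cauda and 14 in the P42 corpus. Without that limit the order of corpus and cauda at P42 turned. The means were then 0.924%, 1.26% and 1.16% for caput, corpus and cauda (exact permutation within pools p = 0.889).

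The genes that stood highest against the rest were those of the T cell receptor complex, killer cell receptors, granule proteins and lymphocyte chemokines. Ranked by the median over libraries of the ratio to the rest, among genes with at least 100 UMIs, the first were Nkg7 (147-fold, a granule membrane protein), Cd3g (115-fold), Ms4a4b (105-fold), Xcl1 (90.8-fold, a chemokine that attracts cross-presenting dendritic cells), Cd3d (88.0-fold), Klra9 (85.6-fold), Klrd1 (83.9-fold, the CD94 chain of NK receptors), Gzmb (83.9-fold, granzyme B), Trbc2 (83.8-fold) and Ctsw (82.7-fold, a cathepsin of cytotoxic cells). The first 30 also held Gm19585, Ccl5, Trbc1, Gimap3, Il2rb, Cd3e, Trac, Cd7, Gzma, Lck, Cd226, Il17a, Cxcr6, Ly6c2, Ltb, Gimap4, Hcst, Lat, Il2rg and Il7r, the last at 20.7-fold. Nkg7, Cd3g, Ms4a4b, Cd3d, Trbc2, Ccl5 and Cd3e are genes of the rule, so their ranks follow from the choice of barcodes. Klra9 belongs to a family of near-identical genes whose reads may be split among copies, so its level is uncertain.

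**Figure D2:**
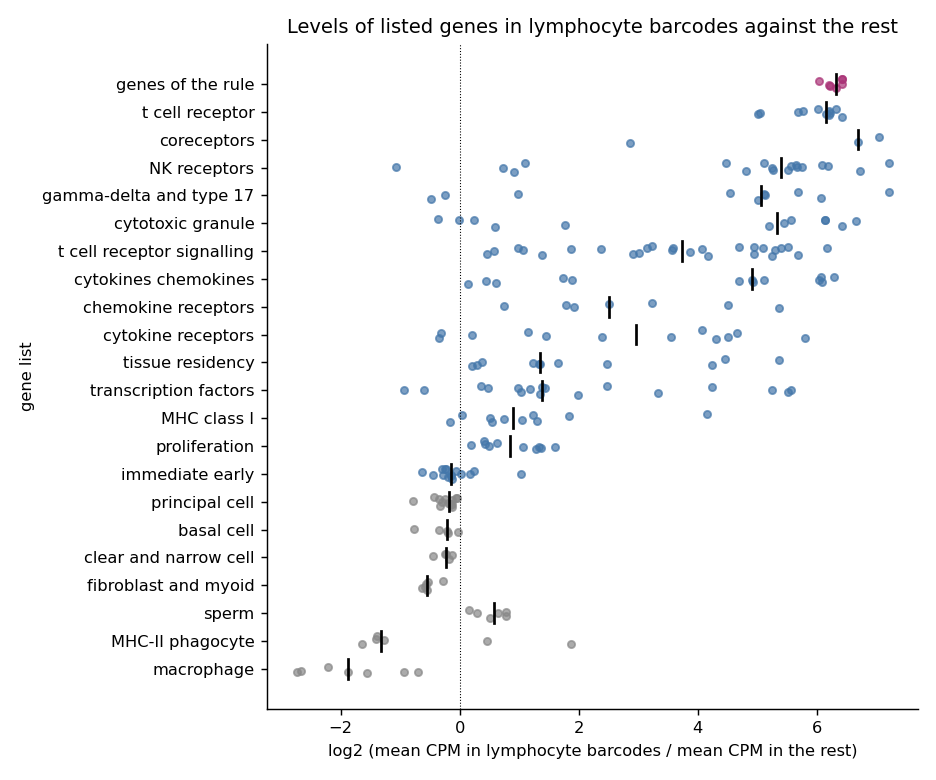
Ratio of the mean CPM in lymphocyte barcodes to that in the rest (log2, x axis) for each gene of 22 lists (y axis), with 1 point per gene and a black bar at the list's median. T cell receptor and coreceptor genes lie far to the right of 0. Most NK receptor and granule genes lie to the right as well, with 15 of 18 and 8 of 12 plotted genes at 2 or more times the rest. Genes of principal, basal and clear cells lie just left of 0 and macrophage genes further left.

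Of the T cell receptor list, 4 of 11 genes belonged to the rule, and the 7 others stood at 2 or more times the rest with a median ratio of 54.2. Cd3g, a chain of the CD3 complex and a gene of the rule, was found in 178 of the 356 barcodes and in 0.867% of the rest, and its level in caput, corpus and cauda was 334, 264 and 310 CPM at P42, 73.7, 185 and 108 CPM in P56 replicate 1 and 92.6, 99.8 and 64.9 CPM in P56 replicate 2. The P42 libraries lay above all P56 libraries. Trac, the constant region of the alpha chain, was not part of the rule and was found in 86 barcodes (24.2%, 0.599% of the rest), at 70.5 ± 57.5 CPM against 1.30 CPM (SD, n = 9 libraries). Trdc, the constant region of the delta chain, was found in 59 barcodes (16.6%, 0.681% of the rest), at 134, 186 and 75.5 CPM at P42, 8.67, 23.1 and 40.5 CPM in P56 replicate 1 and 12.9, 22.2 and 16.2 CPM in P56 replicate 2. Every P42 library lay above every P56 library for Trdc. Signalling genes below the receptor had a lower median ratio of 15.5, with 25 of 28 at 2 or more times the rest.

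Ccl5, a chemokine of activated T and NK cells, was the most abundant gene of the rule and the one most often detected in the rest (6.39%, against 278 lymphocyte barcodes or 78.1%). Its level was 1500, 3578 and 2864 CPM in caput, corpus and cauda at P42, 733, 2552 and 459 CPM in P56 replicate 1 and 1036, 1941 and 611 CPM in P56 replicate 2. The corpus held the highest level in each of the 3 pools.

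Cytotoxic granule genes had a median ratio of 21.2 over 15 genes, with 10 at 2 or more times the rest. Their summed level was 1.14 to 3.32 times that of the rest over the libraries. Without Nkg7, a gene of the rule, the median ratio was 18.4 over 14 genes, with 9 at 2 or more times. Granzyme A and granzyme B were highest in different libraries. Gzmb was found in 87 barcodes (24.4%, 0.652% of the rest), with 583, 102 and 175 CPM at P42, 69.4, 208 and 40.5 CPM in P56 replicate 1 and 144, 44.4 and 48.7 CPM in P56 replicate 2. The caput at P42 lay highest and the other libraries overlapped. Gzma was found in 48 barcodes (13.5%, 0.645% of the rest), with 0, 312 and 95.3 CPM at P42, 13.0, 170 and 0 CPM in P56 replicate 1 and 33.4, 77.6 and 43.3 CPM in P56 replicate 2, where the zeros of the P42 caput and of the cauda allow up to 18.2 and 40.5 CPM. Its corpus value was the highest of each pool. Prf1, perforin, was found in 29 barcodes, Gzmk in 4, and Gzmm had 0 UMIs, which allows up to 1.55 CPM over all lymphocyte barcodes. Reads of Gzmb and Gzmc, which lie close together and are alike, could be split by the counting, so these levels are uncertain.

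Of the 18 NK receptor genes, 15 stood at 2 or more times the rest (median ratio 42.2). Klrd1 was found in 91 barcodes, Klre1 in 49, Klra8 in 24 and Ncr1, the receptor NKp46 that marks NK cells, in 22. Klrb1c, which encodes NK1.1, was no clean marker here: it was found in 93 barcodes (26.1%) but also in 14.4% of the rest, and the rest of the caput held it in 42.5% of barcodes against 0.294% in the corpus and 0.344% in the cauda.

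Among 15 genes of gamma-delta and type 17 cells the median ratio was 23.4. Il17a, the cytokine interleukin-17A, was found in 21 barcodes with 139 UMIs, of which the P42 corpus held 110 in 11 barcodes and the P42 cauda 16 in 4 barcodes. The caput held 1 UMI at P42 and 0 in both P56 libraries, and corpus and cauda held 1 and 2 UMIs in P56 replicate 1 and 5 and 4 UMIs in P56 replicate 2. Il17a was thus detected in every corpus and cauda library and in 1 of 3 caput libraries. Cd163l1 (the scavenger receptor SCART1 of gamma-delta T cells) was found in 30 barcodes, 27 of them at P42, Trgc1 in 47, Trdv4 in 25 and Il23r, the receptor for the cytokine that sustains type 17 cells, in 10. Il22 had 0 UMIs.

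The coreceptors were sparse. Cd8b1 was found in 35 barcodes (12 at P42 and 23 at P56), Cd8a in 27 (12 and 15) and Cd4 in 10, all at P42, with 12 UMIs against 0 at P56. The 0 of 158 barcodes at P56 allows up to 1.90% of barcodes with a Cd4 UMI, which is no limit on cells that express it, and the pooled Cd4 level at P42 was at least 5.25-fold higher than the floor of 3 counts over the P56 group. Ctla4, an inhibitory receptor of activated and regulatory T cells, was found in 16 barcodes (15 at P42), and Icos, a costimulatory receptor, in 38. Foxp3, the factor that defines regulatory T cells, was not analysed here. Of the exhaustion receptors, Pdcd1 was found in 9 barcodes, and Lag3 and Havcr2 in 1 each.

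Homing and cytokine genes gave a mixed list. Cxcr6, a receptor of tissue T cells, was found in 89 barcodes (25.0%, 0.719% of the rest), with 121, 167 and 123 CPM at P42, 52.0, 38.6 and 94.6 CPM in P56 replicate 1 and 43.7, 33.3 and 32.4 CPM in P56 replicate 2, so that all P42 libraries lay above all P56 libraries. Cxcr3 was found in 44 barcodes, and Ccr2 in 89 at 3.44 times the rest, where monocytes and macrophages also express it. Cxcr4 was found in 49 barcodes at P42 and 4 at P56. Among cytokines, Xcl1 was found in 98 barcodes (78.4 times the rest), Ifng in 56 (67.8 times) and Ltb in 86, while Il4 had 0 UMIs. Tnfsf11, which encodes RANKL, was found in 20 barcodes, all at P42, a level at least 14.4-fold higher than the P56 floor.

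Residency and presentation genes stood closer to the rest. The median ratio was 2.84 for 12 tissue residency genes, with Cd69 in 103 barcodes (21.9 times the rest) and Itgae, the integrin CD103 that holds lymphocytes in epithelium, in 10 (3.14 times). MHC class I genes had a median of 1.87, led by H2-Q7 at 17.9 times, a gene with close copies whose level is uncertain. Proliferation genes had a median of 1.81, with Mki67 in 38 barcodes (10.7%, 4.32% of the rest). Immediate early genes, which respond to dissociation, stood at 0.90 times the rest.

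Detection within the same barcode set 3 groups of genes apart, given as counts over the 356 barcodes. Of 21 barcodes with Il17a, 15 also held Trdc (71.4%, against 13.1% of barcodes without Il17a), 17 held Cxcr6 (81.0% against 21.5%), 13 held Cd163l1 (61.9% against 5.07%) and 0 held Gzma. Of 59 with Trdc, 26 held Trgc1 (44.1% against 7.07%), 25 held Cd163l1 (42.4% against 1.68%) and 9 held Trac (15.3% against 25.9%). Beta chain RNA was common beside delta chain RNA. In barcodes with Trdc and none of the NK, Cd8 and Cd4 types set below, Trbc2, a gene of the rule, was found in 36 of 51 barcodes (70.6%), beside 35 of 50 (70.0%) in the Cd8 type.

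Gzma went with NK genes. Of 48 barcodes with Gzma, 30 held Klrd1 (62.5% against 19.8%), 19 held Klra8 (39.6% against 1.62%), 15 held Prf1 (31.2% against 4.55%), 11 held Eomes (22.9% against 1.30%), 6 held Cd3g (12.5% against 55.8%) and 0 held Trac. Of 35 with Cd8b1, 13 held Trac (37.1% against 22.7%), 10 held Cd8a (28.6% against 5.30%), and 0 held Trdc or Gzma. Gzmb crossed the groups, since 52 of its 87 barcodes held Cd3g (59.8% against 46.8%) and 47 held Xcl1 (54.0% against 19.0%). The rule bears on these counts, because a barcode with no CD3 gene needed 3 of Ms4a4b, Nkg7, Trbc2 and Ccl5 to be counted.

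**Figure D3:**
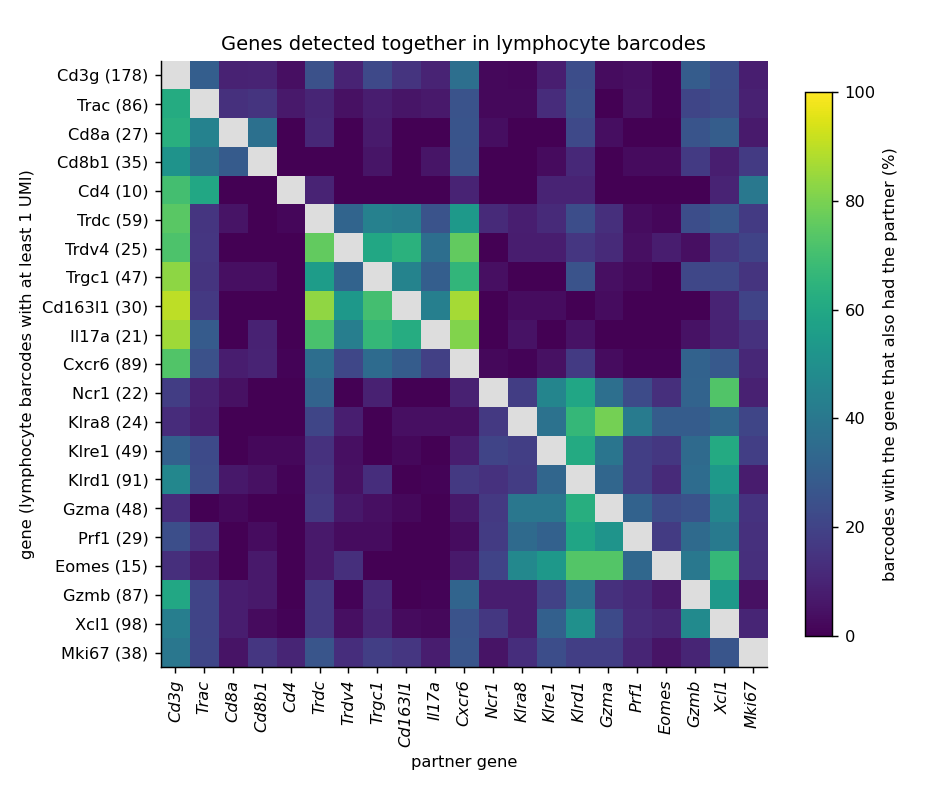
Percent of lymphocyte barcodes with a gene (rows, number of barcodes in brackets) that also held a partner gene (columns), from 0 to 100% by colour, with the diagonal in grey. Trdc, Trdv4, Trgc1, Cd163l1, Il17a and Cxcr6 form a block of high percentages, Klra8, Klre1, Klrd1, Gzma, Prf1 and Eomes another. Cd8a and Cd8b1 share few barcodes with most genes of both, other than Cxcr6 (25.9% and 25.7%) and, for Cd8a, Klrd1 (22.2%).

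Sorted by these receptors, 44 barcodes (12.4%, exact 95% interval 9.13 to 16.2) were of an NK type (Ncr1 or Klrb1c without a CD3 gene), 50 (14.0%, 10.6 to 18.1) of a Cd8 type (Cd8a or Cd8b1, without Cd4), 10 (2.81%, 1.36 to 5.11) of a Cd4 type and 51 (14.3%, 10.9 to 18.4) of a Trdc type (Trdc with none of the former). The other 201 (56.5%) had none of these genes detected in such a combination, and with barcodes thinned to 1000 UMIs that number was 278 of 354. Median depth was 3961.5, 5838.5, 5502.5, 3619 and 4202 UMIs in the 5 groups, and the classes are cuts by detection rather than cell types. As the rest of the caput carried Klrb1c, the NK type was also set by Ncr1, Klre1 or Klra8, a choice made after that was seen, which gave 42 barcodes and lowered the caput count from 13 to 5.

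Genes not used to set the classes were found in them as follows. In the NK type, Gzma was found in 20 barcodes (45.5%) at a pooled level of 505 CPM, Prf1 in 11 (124 CPM), Tyrobp, the adaptor of activating NK receptors, in 32 (607 CPM) and Eomes in 6, while Trac was found in 1, Trbc1 in 12 (27.3%) and Trbc2 in 15 (34.1%). In the Trdc type, Il17a was found in 15 barcodes (29.4%) at 494 CPM, Cxcr6 in 30 (370 CPM), Cd163l1 in 25 (203 CPM), Maf in 28 (266 CPM) and Il23r in 9, while Gzma was found in 4. In the Cd8 type, Trac was found in 21 barcodes (42.0%), Gzmb in 13 (148 CPM) and Cxcr6 in 15, while Gzma was found in 1. In the 10 Cd4-type barcodes, Trac was found in 6, Cd69 in 6, Il7r in 5, Il2ra in 3 and Mki67 in 4, while neither Gzma nor Gzmb was detected.

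The Trdc type made up 38 of 198 lymphocyte barcodes at P42 (19.2%) and 13 of 158 at P56 (8.23%), or 17 of 196 (8.67%) and 6 of 158 (3.80%) after thinning. The Cd8 type made up 19 (9.60%) and 31 (19.6%), an order that turned after thinning (12 of 196 or 6.12%, and 8 of 158 or 5.06%). By library, the Trdc type numbered 4, 26 and 8 in caput, corpus and cauda at P42, 1, 3 and 3 in P56 replicate 1 and 3, 1 and 2 in P56 replicate 2, and the NK type 1, 17 and 10, then 6, 1 and 0, then 6, 3 and 0. No class passed the test between segments: the exact two-sided permutation within pools gave p = 0.583 for the NK type, 0.417 for the Cd8 type, 1 for the Cd4 type and 0.694 for the Trdc type, with Benjamini-Hochberg adjusted p of 0.926, 0.926, 1 and 0.926 over the 4 classes. After thinning, the NK type made up 12.9%, 6.11% and 2.56% of barcodes in caput, corpus and cauda (SD 4.49, 2.80 and 4.44, n = 3), with an exact permutation p of 0.0278, the smallest possible, and an adjusted p of 0.111, below which a single class could not go. Klrb1c, which sets this type, was found in 42.5% of the rest of the caput. With the type set by Ncr1, Klre1 or Klra8 instead, and without thinning, the shares were 5.20%, 16.9% and 7.81% (exact permutation p = 0.167), so the caput was lowest and the order turned.

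The mitochondrial share of UMIs in the lymphocyte barcodes did not pass the test between segments. It was 7.02% ± 1.02 for caput, 18.9% ± 5.79 for corpus and 16.0% ± 5.73 for cauda (SD, n = 3 library means), with p = 0.0556 in the exact permutation within pools. The caput was lowest in each pool, with 5.84%, 12.9% and 10.0% in caput, corpus and cauda at P42. The values were 7.65%, 19.1% and 21.4% in P56 replicate 1 and 7.58%, 24.5% and 16.6% in P56 replicate 2. With at least 4 rule genes the exact permutation p was 0.0278, the smallest possible. The rest of the same libraries stood at 7.39%, 20.8% and 16.3% (exact permutation p = 0.0278, the smallest possible). Lymphocyte barcodes minus rest was -0.363, -1.90 and -0.324 percentage points (exact permutation p = 0.333), so no segment difference particular to the lymphocyte barcodes was detected.

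Between segments, 434 of 3345 genes tested were called in the lymphocyte barcodes (13.0%), where UMIs were summed per library, edgeR's quasi-likelihood test took the pool as a block, and a call needed a Benjamini-Hochberg adjusted p below 0.05 and at least a 2-fold change. The caput was highest for 210 (6.28%), the corpus for 97 (2.90%) and the cauda for 127 (3.80%). Genes that stood at 2 or more times the rest were called at about that rate, 20 of 165 (12.1%), and 7 of these 20 were also called in the rest. Of the genes below 2 times the rest, 414 of 3180 were called (13.0%), and 363 of them were also called in the rest of the same libraries. The count over all genes fell to 142 without P56 replicate 1, to 218 without its caput library and to 128 among the 178 barcodes with at least 4 rule genes.

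Of those 20 genes 9 had their highest fitted level in the corpus, several of them close to their level in the cauda. Il17a was called, but it passed the filter on low counts only through corpus and cauda, so its call is given as a description. The caput held 1 UMI against 116 in the corpus, a ratio of pooled levels of 142 with an exact 95% interval of 25.0 to 5663 for counting error. Gzma passed that filter only through corpus and cauda too, so its call is also given as a description. It stood 3.19 higher in the corpus than in the caput on the log2 scale, and the changes that follow are on that scale. Ccl5 stood 1.32 ± 0.37 higher in the corpus than in the caput, but it helped to choose the barcodes, so its call supports nothing. Ly6c2, a surface protein of effector T cells, rose by 2.78, Ccr2 by 2.21, Epsti1, an interferon-induced gene, by 2.22, Ptpn18 by 1.73, Slfn2, a factor of lymphocyte quiescence, by 1.62 and Il2rg, the common cytokine receptor chain, by 1.47. Of these, Ly6c2, Ccr2 and Epsti1 also passed the filter only through corpus and cauda and are given as a description. Cauda minus corpus was -0.38 ± 0.52 for Ly6c2, -0.19 ± 0.41 for Ccr2 and -0.24 ± 0.45 for Epsti1 (SE). It was -0.00067 ± 0.24 for Ptpn18, -0.26 ± 0.38 for Slfn2 and -0.47 ± 0.37 for Il2rg. Larger values were -1.85 ± 0.68 for Gzma, -1.46 ± 0.59 for Il17a and -1.30 ± 0.38 for Ccl5. For Ly6c2 the levels scaled by the fit were 16.8, 250 and 376 CPM at P42, 55.1, 207 and 104 CPM in P56 replicate 1 and 20.4, 214 and 49.7 CPM in P56 replicate 2, with every corpus library above every caput library. Il17a and Ccl5 show the same order between corpus and caput in each pool.

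The other 11 had their highest fitted level in the cauda. Cauda minus corpus was 5.98 ± 0.97 for Gzmc, 1.92 ± 0.60 for Nr4a2 and 1.65 ± 0.68 for Tnfaip3 (SE). For others it was small, with 0.38 ± 0.33 for Pim1, 0.28 ± 0.44 for Il7r and 0.04 ± 0.42 for Gmfg. Pim1, a kinase induced by cytokines, rose by 2.29 ± 0.37 from caput to cauda (SE, adjusted p = 0.0024 in the edgeR test over all segments). Tnfaip3, Nr4a2, Il7r, Samsn1, Gmfg and Rora passed the filter on low counts only through corpus and cauda. Their calls are given as a description. Tnfaip3, an inhibitor of NF-kappaB signalling, stood 3.79 higher in the cauda than in the caput. Nr4a2, an orphan receptor induced by receptor signalling, stood 3.15 higher and Il7r, the interleukin-7 receptor of resting T cells, 2.38 higher. Samsn1 rose by 2.83, Gmfg by 2.13, Rora, a factor of innate and type 17 lymphocytes, by 2.10, Ets1 by 1.86, Mndal by 1.68 and Rgs2, a regulator of G protein signalling, by 1.56. Gzmc was 4.86 lower in the corpus than in the caput on the log2 scale and 1.12 higher in the cauda, and the P42 caput and cauda held most of it. Il7r stood at 48.6, 174 and 203 CPM at P42, 13.0, 30.8 and 40.5 CPM in P56 replicate 1 and 2.57, 44.4 and 43.3 CPM in P56 replicate 2, so the caput was lowest in every pool. Of these cauda genes, Tnfaip3, Nr4a2, Pim1, Gmfg, Rgs2 and Gzmc were also called in the rest, as was Il17a among the corpus genes. Leaving out 1 library or pool at a time, Pim1 kept its call wherever a value could be fitted, as did Tnfaip3 and Il17a with the limit given above. Gzma, Ly6c2, Ccr2 and Rora lost it in 4 of 12 such fits each, Nr4a2 in 4 of 10, Il7r in 4 of 9, Samsn1 in 3 of 11 and Gzmc in 1 of 9, and Il2rg lost it in 11 of 12 such fits, Ets1 in 10 of 11, Ptpn18 in 9 of 11, Mndal in 8 of 12, Slfn2 in 7 of 11, and Epsti1, Gmfg and Ccl5 in 7 of 12 each. The calls also rest on the pairing by pool: without the pool as a block, 234 genes were called in all, and of 17 named genes with a value 14 lost their call, while Il17a, Epsti1 and Gmfg kept it.

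**Figure D4:**
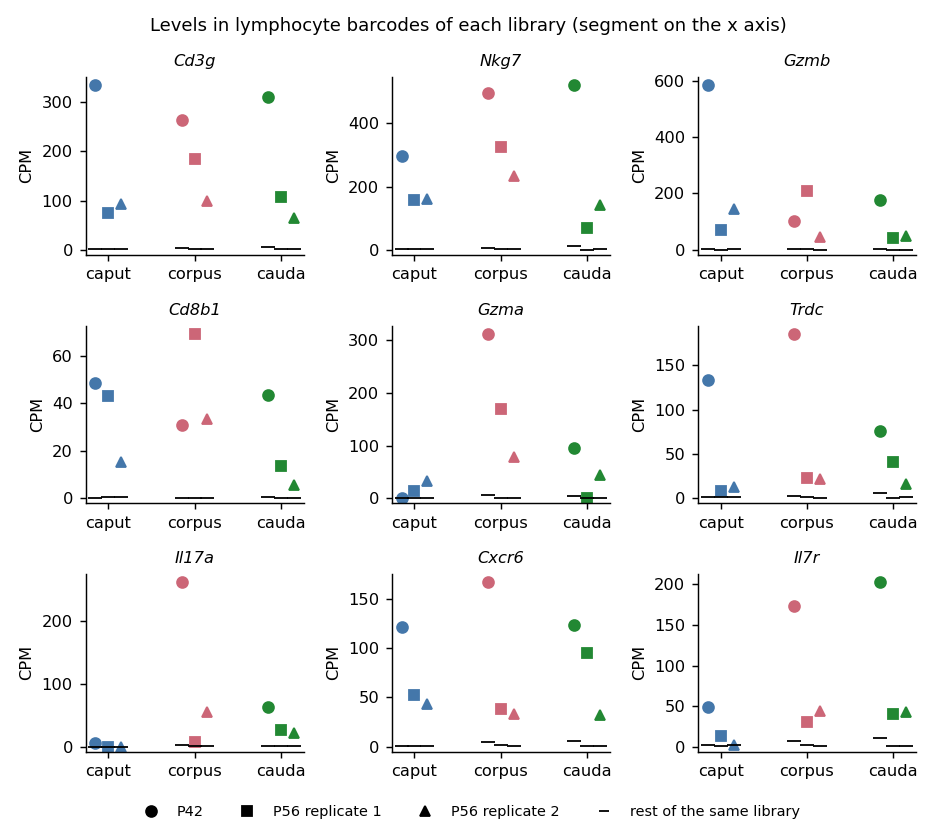
Level (CPM, y axis) of 9 genes in the lymphocyte barcodes of each library, by segment (x axis) and pool (symbol), with short lines for the rest of the same library. Cd3g, Trdc and Cxcr6 are higher in every P42 library than in any P56 library, Gzma is highest in the corpus of each pool, and the P42 corpus holds most Il17a (262 CPM).

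By list, and beside 13.0% of all genes tested, 0 of 4 T cell receptor genes outside the rule, 0 of 10 receptor signalling genes, 2 of 9 granule genes (Gzma and Srgn), 0 of 9 NK receptor genes, 2 of 4 gamma-delta and type 17 genes (Il17a and Maf), 2 of 5 cytokine receptor genes (Il2rg and Il7r) and 4 of 9 transcription factors (Id2, Id3, Ets1 and Rora) were called, none with the caput highest. With so few genes a list, counts such as 2 of 9 are near that share. Il17a, Gzma, Il7r and Rora carry the limit of the filter given above. Immediate early genes, which respond to dissociation, were called in 5 of 15 cases (Fosb, Junb, Zfp36, Nr4a1 and Nr4a2), all highest in the cauda, with a median of cauda minus caput of 1.49, and their part in the other cauda calls was not tested. The median of corpus minus caput was 0.77 for these T cell receptor genes and 1.47 for the gamma-delta and type 17 genes, against -0.02 over all genes tested. Of the genes of other cells, 14 of 14 principal cell genes and 4 of 5 fibroblast and myoid genes were called, with medians of cauda minus caput of -6.13 and 4.04 against -0.03 over all genes. The largest caput changes below 2 times the rest were Ly6g5c, Cst12, Clpsl2, Lcn6, Teddm1a, Defb15, Lypd8, Lcn10, Muc15 and Defb45. Those of the corpus were Defb23, Bsph2, Defb22, Defb38, Gm34646, Spint5, Defb26, Spint4, Npy and Odam, and those of the cauda Ltf, Ly6f, Spink14, Defb9, Smpx, Col6a5, Ch25h, Defb40, Defb43 and 9230019H11Rik. Counted over caput, corpus and cauda, 30 of 30 named genes below 2 times the rest were also called in the rest.

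A test of the difference itself, the segment effect in lymphocyte barcodes against that in the rest of the same libraries, called 7 of 3345 genes (0.209%), and 215 had an unadjusted p below 0.05. No gene was called both between segments in the lymphocyte barcodes and against the rest in the same direction (0 of 3345). The count of 7 fell to 3 without the P42 pool, 2 without P56 replicate 1 and 1 without P56 replicate 2. For the 7 genes the rest changed more than the lymphocyte barcodes. Klrb1c fell by 7.74 on the log2 scale from caput to corpus in the rest and stood at -1.54 in the lymphocyte barcodes (difference 6.23 in the joint fit, adjusted p = 5.83e-07), and Klrb1a, a gene of the same cluster, fell by 7.90 and by 2.42 (difference 4.59 in the joint fit, adjusted p = 0.0082). The joint fit scaled and modelled both sums together, so its differences need not equal those between the separate fits. The adjusted p-values set beside these differences cover all segments together, not corpus against caput alone. Lat, the adaptor that links the T cell receptor to its kinases, fell by 3.90 in the rest and stood at -0.00 (difference 3.83 in the joint fit, adjusted p = 0.038), with 60.7, 121 and 131 CPM in the lymphocyte barcodes and 11.6, 2.08 and 3.53 CPM in the rest at P42. Hopx (difference 2.90), Xlr4a (4.84) and Lcp1 (1.79, an actin bundler of leukocytes) followed, and Id2 differed mainly in the cauda, where it was 1.62 above the caput in lymphocyte barcodes and 2.97 in the rest. Klrb1c, Lat and Lcp1, genes known from lymphocytes and other leukocytes, were thus highest in the caput of the rest, and the part of that RNA in the lymphocyte barcodes was not tested.

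**Figure D5:**
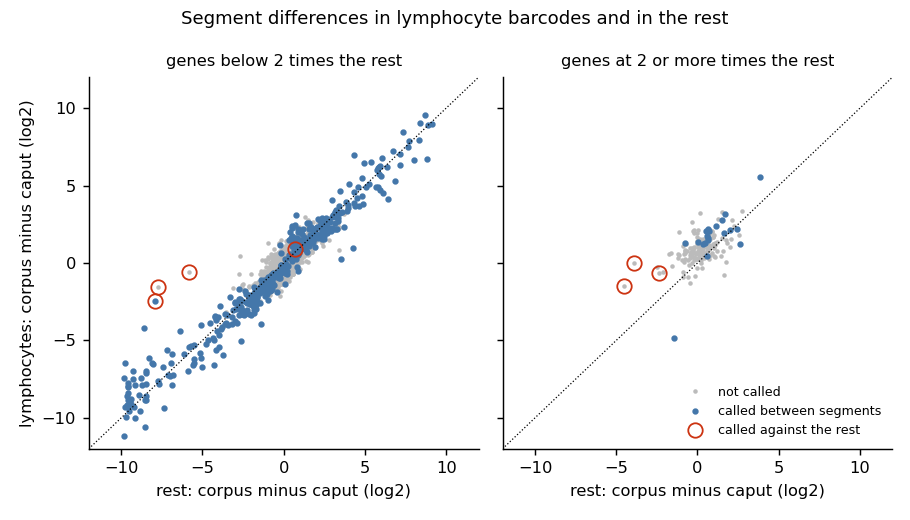
Corpus minus caput (log2) in the rest (x axis) against the same in lymphocyte barcodes (y axis), with 1 point per gene tested, genes below 2 times the rest on the left and those at 2 or more times on the right, genes called between segments in blue and the 7 genes called against the rest ringed. Called genes on the left lie along the dotted line of equal change, and the ringed genes other than Id2 lie to the left of that line with a larger change in the rest.

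Between ages, 549 of 4381 genes were called (12.5%), 265 higher at P56 (6.05%) and 284 higher at P42 (6.48%), in an edgeR test whose spread came from the P56 replicates alone. The 3 P42 libraries came from 1 pool of 5 mice but entered as separate libraries, so these p-values do not cover the spread between pools at P42 and the calls compare that pool with the P56 pools. The P56 libraries came from 2 pools and also entered as separate libraries, with no pool term in the model. DESeq2 called 225, and an additive model of segment and age 296. Without scaling factors the split was 98 and 640, with the median of all genes moved to -0.41 on the log2 scale. Of 251 genes at 2 or more times the rest, 105 were called (41.8%), all 105 higher at P42 under the scaling used, and 81 of them were also called in the rest, though a gene high only at P42 could pass the filter on low counts and the limit of 2 times through P42 alone. Of the genes below 2 times the rest, 444 of 4130 were called (10.8%). The lymphocyte barcodes at P42 also held more of the genes left out of the rule (1750 against 478 CPM) and a smaller share with exactly 3 rule genes (43.4% against 58.2%), and the part of these differences in the calls was not tested.

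The genes named by the rule of largest change at 2 or more times the rest are given in order of that change, as a description. They were Trat1, an adaptor of the T cell receptor, found in 17 barcodes at P42 and 0 at P56 and at least 17.5-fold higher than the P56 floor, Itgal, the integrin LFA-1 chain (34 UMIs at P42 and 1 at P56), Cd163l1 (63 and 3 UMIs) and Il18r1, an interleukin-18 receptor chain (3.72 lower at P56 on the log2 scale). The ratios of pooled levels were 44.6 for Itgal (exact 95% interval 7.49 to 1815) and 27.6 for Cd163l1 (9.01 to 137), for counting error only. Cd44, an activation and adhesion receptor, Dock2, a factor of lymphocyte migration, Dusp2, Fli1, Vps37b and Cnn2 followed, at 3.63, 3.61, 3.46, 3.39, 3.32 and 2.95 lower at P56. Trdc, which passed the filter on low counts only through P42, stood 2.36 lower at P56 as a description. All 3 P42 libraries lay above all 6 P56 libraries for Trdc. None of the 105 called genes at 2 or more times the rest was higher at P56, with the filter as said, while Gzma, which was not called, stood at 1.12.

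By list, and beside 6.48% of all genes tested and 41.8% of those at 2 or more times the rest, 1 of 5 T cell receptor genes outside the rule, 5 of 15 receptor signalling genes, 5 of 13 NK receptor genes, 3 of 6 gamma-delta and type 17 genes, 5 of 6 residency genes, 5 of 5 cytokine receptor genes (Il2rb, Il2rg, Il7r, Il18r1 and Ifngr1) and 10 of 15 immediate early genes were higher at P42, with medians of P56 minus P42 of -2.38 for the gamma-delta and type 17 genes and -1.65 for the NK receptor genes, against -0.00 over all genes tested. The shares of T cell receptor genes outside the rule, of signalling genes and of NK receptor genes lay below that of all genes at 2 or more times the rest. Il2rb, Il7r, Il18r1, Cd163l1 and Trdc passed the filter on low counts only through P42, and other genes of these lists may have done so. The list counts are thus given as a description. Of the 7 rule genes, Cd3e, Cd3g, Trbc2 and Ms4a4b stood lower at P56, which supports nothing, since they chose the barcodes. Of 10 granule genes, 1 was called (Ctsw), and Gzmb stood at -0.94 (adjusted p = 0.059) and Gzma at 1.12 (adjusted p = 0.45). Of the genes of other cells, 4 of 6 fibroblast genes, led by Col1a1 at -4.44, 4 of 4 genes of MHC class II phagocytes and 4 of 4 erythroid genes (median -2.80) were higher at P42, and 6 of 14 principal cell genes were higher at P56. Of the 10 named genes higher at P56, all below 2 times the rest, 2610016A17Rik (4.49), Fyb2 and Tlcd1 were not called in the rest, while AY761185, Rnase1, Wfdc13, Spint4, Syn2, Pate2 and Akr1c12 were.

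Against the rest, 1 of 4381 genes differed in its age effect (0.0228%), and 410 had an unadjusted p below 0.05. DESeq2 called 0, and 9 and 20 were called without P56 replicate 1 and 2. The gene was Penk, the precursor of enkephalin peptides, which fell by 2.35 on the log2 scale from P42 to P56 in the rest and by 1.20 in the lymphocyte barcodes in separate fits (difference 1.43 in the joint fit of both sums, adjusted p = 0.032), and it stood at 0.73 times the rest. No gene was called both by age in the lymphocyte barcodes and against the rest in the same direction (0 of 4381). The estimated age change in the rest varied beside that in the lymphocyte barcodes. The 10 genes named for the largest P42 values were picked for their change in the lymphocyte barcodes. In the joint fit their difference from the rest was mostly negative, with no call. It was -2.63 for Itgal, -2.41 for Cd163l1, -2.39 for Vps37b, -2.14 for Il18r1, -1.14 for Cnn2, -0.98 for Cd44, -0.95 for Fli1 and -0.10 for Dock2. Trat1, with 0 UMIs at P56, stood at -12.2, and only Dusp2 was positive (0.48). For other listed genes the rest stood lower at P56 than the lymphocyte barcodes did: Trbc2 stood at -1.28 in the lymphocyte barcodes and -1.55 in the rest, Ptprc (CD45) at -1.79 and -2.11, Rgs1 at -1.81 and -2.08, and Klrd1 at -1.85 and -2.27. Trdc (-2.36 and -1.04), Il18r1 (-3.72 and -0.32) and H2-Q7 (-1.85 and -0.87) had larger values in the lymphocyte barcodes, and these differences did not pass the test against the rest. As the rest contains barcodes with 1 or 2 rule genes, which held some of the 12 other lymphocyte genes, the comparison against the rest sets these genes partly against themselves.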

How the data were processed

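The data were single-cell RNA libraries made on a microfluidic chip (GEXSCOPE, Singleron) from pooled epididymal segments. The authors deposited a table of UMI counts per gene and barcode, 32195 genes by 44869 barcodes with 307987941 UMIs, and replicates were not pooled. Reads were trimmed with fastp, barcodes were chosen with UMI-tools, reads were aligned with STAR 2.7.3a to GRCm38 (GRCm38.p6 in the processing notes) and assigned to exons with featureCounts, and UMIs were then counted. Fixed cell numbers per library were set in that step, so the number of barcodes per library was set by that choice.

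Lymphocyte members, gene lists and tests were chosen with earlier results of these data known. The 9 libraries were mapped by the segment and batch number in the column names, with the batch tied to age by the study's sample table. Doublets were not removed. UMIs of lymphocyte barcodes and of the rest were summed per library and tested with edgeR 4.0.16 (quasi-likelihood, filterByExpr, TMM scaling, R 4.3.3), called at a Benjamini-Hochberg adjusted p below 0.05 and a log2 change of at least 1, and DESeq2 1.42.0 was an alternative. The pool was a block between segments, since 3 segments share each pool's mice: deviations of same-pool libraries correlated at 0.052 to 0.514 (9 pairs, median 0.124) and those of different pools at -0.401 to 0.189 (18 pairs, median -0.105). Pairs of different pools with a P42 library also differ in age. Among P56 libraries alone the ranges overlapped, at 0.052 to 0.286 within a pool and -0.023 to 0.189 between pools. Libraries are pools of mice. P-values between segments measure the spread left between libraries once pool means are taken out. Those between ages in the lymphocyte barcodes measure only the spread between P56 libraries of the same segment, which came from 2 pools. The age test against the rest took the library as a block and had no term for age by segment. Its spread thus also holds the P42 libraries, which came from 1 pool, and differences in the age effect between segments. Shares were tested by exact permutation with scipy 1.17.1, and intervals are exact Clopper-Pearson at 95%. Named genes were those of the rule and lists, up to 10 called genes in each direction at 2 or more times the rest, up to 10 below that, and the 30 leading genes. Rgs2 was named beyond these as a list gene. Alternatives left out 1 library or pool, members with fewer than 4 rule genes, members above the 95th percentile of UMIs, mitochondrial genes, the filter, the scaling factors or the block, or thinned barcodes to 1000 UMIs. For the share, the limit on C1q genes was also left out.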

Additional observations from a re-analysis of the deposited data

Results flagged for a closer look

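The share of lymphocyte barcodes moved in opposite directions with age in different segments. In the caput, P56 minus P42 was 0.0525 and 0.516 percentage points for P56 replicate 1 and 2, in the corpus -1.67 and -2.08, and in the cauda -1.23 and -1.05. The difference between segments was not tested, since P42 has 1 pool. After thinning to 1000 UMIs both P56 caput libraries (0.0412% and 0.143%, from 2 and 7 barcodes) lay below the P42 caput (0.167%, from 7).

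The segment effect differed between lymphocyte barcodes and the rest by a test of the difference for 7 genes. Corpus minus caput in lymphocyte barcodes, against that in the rest, was 2.90 for Hopx, 0.39 for Id2, 4.59 for Klrb1a, 6.23 for Klrb1c, 3.83 for Lat, 1.79 for Lcp1 and 4.84 for Xlr4a on the log2 scale. The age effect differed for Penk, by 1.43.

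Signal of the rule genes also lay in barcodes that the rule left out. With at least 3 rule genes and 2 or more of C1qa, C1qb and C1qc there were 109 barcodes, 81 at P42 and 28 at P56, of which 60 came from the P42 cauda. They had a median of 5381 UMIs, 100 of them (91.7%) held at least 1 of the 12 other lymphocyte genes, and their pooled levels were 121 CPM for Cd3g and 353 CPM for C1qa, against 181 and 10.9 CPM in the lymphocyte barcodes. Outside the limits on genes, UMIs or mitochondrial share lay 10 more barcodes with at least 3 rule genes, with a median of 22370 UMIs. Whether these 109 and 10 barcodes held more than 1 cell was not tested.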

How the results depend on the processing

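Of the results by comparison, 60 alternatives kept the direction and call or stayed within 1.5 times the count, 20 moved, 3 reversed and 1 gained the threshold. For the named genes, 250 alternatives kept the call and 143 lost it, and 0 reversed. The cause of a change was not tested, other than that fewer barcodes or libraries entered some fits. The 434 segmental genes became 674 with no filter and 128 with at least 4 rule genes, and 142 to 604 when a library or pool was left out, with 142 without P56 replicate 1 and 218 without its caput library. The 7 genes against the rest became 58 with no filter, 1 with at least 4 rule genes and 1 to 3 without a pool. The 549 age genes became 225 with DESeq2 and 296 in an additive model. The 1 age gene against the rest became 0 with DESeq2, 13 with no filter, 2 with scaling factors of 1, 3 without mitochondrial genes, 0 with at least 4 rule genes, 5 without barcodes above the 95th percentile, and 9 to 20 without a P56 pool. Corpus minus caput in mitochondrial share was 11.8 percentage points and 10.7 with at least 4 rule genes (exact permutation p = 0.0278). Caput minus corpus of the Cd4 type, 1.81 percentage points, was -2.34 with at least 4 rule genes and -0.917 after thinning, and cauda minus caput of the Trdc type, 7.19, ran from -1.06 (without P56 replicate 1) to 13.9. Age genes without 1 P56 pool could not be fitted for lack of residual degrees of freedom. Detection of single genes was limited by depth, since the class without such a gene grew from 201 of 356 barcodes to 278 of 354 after thinning.

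Without the pool as a replicate block, 234 segmental genes were called, and the permutation p was 0.793 for the share and 0.0714 for the mitochondrial share, with adjusted p of 0.843 for the NK, Cd8 and Trdc types and 1 for the Cd4 type. Of 17 named segment genes with a value in that fit, 14 lost their call and Il17a, Epsti1 and Gmfg kept it. The calls on shares, classes and mitochondrial share were those made with the block.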
